A study of Mus musculus with 76 samples.

Results

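The globin rows described here are 5 of the 15192 genes in a table of RNA levels from 76 single mouse cells. They are Hbb-bs, Hbb-b1 and Hbb-b2, which encode adult beta-globin, and Hba-a1 and Hba-a2, which encode adult alpha-globin, and they were taken by name. Hbb-bs was matched through its older symbol Beta-s, under which the table lists it. The cells, called iHPCs, are progenitors with blood-forming capacity that were derived in vitro from pluripotent stem cells with inducible Runx1, Hoxa9 and Hoxa10, 3 transcription factors. All 76 cells carry the same factors and form 1 group, with no control cells, and the table does not tell RNA of the introduced copies from that of the cells' own genes. The labels name no stem cell line, strain or culture, so the cells count as 1 sample and no p-value is given. Each value is a level scaled for gene length, in transcripts per 1000000 (TPM), so the members can be set side by side.

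Haemoglobin is built from alpha-like and beta-like globin chains in equal number, with a haem group in each chain. The chains come from separate gene clusters, each with embryonic and adult members, and both clusters are transcribed at very high level in maturing red cell precursors under the regulators Gata1, Klf1, Tal1 and Nfe2. In mice the adult beta pair exists in alternative haplotypes. Hbb-bs and Hbb-bt form the pair of the single haplotype carried by C57BL/6, the reference strain, and Hbb-b1 and Hbb-b2 form the pair of the diffuse haplotype of other strains.

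Copies of a globin gene can be so alike that many short reads match more than 1 of them. Hbb-bs lies on chromosome 7 at 103826523 to 103827928, and Hba-a1 and Hba-a2 on chromosome 11 at 32283672 to 32284486 and 32296492 to 32297310 (RefSeq, GRCm38.p6). In GENCODE M21 on the same build, the coding sequences of Hba-a1 and Hba-a2, 429 bases each, differed at 1 base, and 82.5% of all 150-base stretches of the Hba-a1 coding sequence occurred unchanged in that of Hba-a2. The coding sequences of Hbb-bs and its neighbour Hbb-bt, 444 bases each, also differed at 1 base, and 90.5% of 150-base stretches were shared. Over whole transcripts, 48.4% of the 150-base stretches of Hba-a1 occurred in Hba-a2 and 58.7% of those of Hbb-bs in Hbb-bt. The 61 coding bases that hold the difference are shown 5′ to 3′ with the differing base in capitals, at chr11:32284313-32284373 and chr11:32297130-32297190 on the plus strand for the alpha pair, and at chr7:103826665-103826725 and chr7:103812656-103812716 on the minus strand for the beta pair.
Hba-a1: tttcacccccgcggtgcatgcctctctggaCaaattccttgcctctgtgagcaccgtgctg
Hba-a2: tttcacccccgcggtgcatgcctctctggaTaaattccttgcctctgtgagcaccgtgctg
Hbb-bs: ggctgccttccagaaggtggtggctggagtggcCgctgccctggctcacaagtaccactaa
Hbb-bt: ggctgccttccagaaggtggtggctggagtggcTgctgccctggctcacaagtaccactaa
No row was found for Hbb-bt in the table of RNA levels, so its level is not analysed here. No sequence of Hbb-b1 or Hbb-b2 was compared, so their likeness to Hbb-bs is not shown. How the authors' pipeline divided reads among copies is not given in the sources used here, so the split between Hbb-bs, Hbb-b1 and Hbb-b2, and that between Hba-a1 and Hba-a2, is uncertain. The sum over a set of copies does not depend on that split where the copies are of equal length. TPM is scaled for length, and the transcripts of Hba-a1 and Hba-a2 were 699 and 554 bases long. Transcript lengths of Hbb-b1 and Hbb-b2 were not compared, so the beta sum can shift with the split. A sum would also count a read more than once if the pipeline did.

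Adult beta-globin RNA was found in nearly every iHPC and adult alpha-globin RNA in few. Hbb-bs reached 1 TPM in 75 of 76 cells (98.7%, exact Clopper-Pearson 95% interval 92.9 to 99.97%), Hbb-b1 in 76 cells and Hbb-b2 in 73. Of all genes in the table, 4.42% were at 1 TPM or more in at least 75 cells and 5.71% in at least 73. All 3 rows, which name copies from both haplotypes, were at 1 TPM together in 72 cells. Hba-a2 reached 1 TPM in 5 cells (6.58%, interval 2.17 to 14.7%), and 38.5% of all genes did so in 5 cells or fewer. Hba-a1 was listed at 0 in all 76 cells, which allows a share of cells of up to 3.95% by the limit of 3 counts and of up to 4.74% by the exact interval, and 18.8% of all genes reached 1 TPM in 0 cells. At least 1 of the 3 beta rows together with neither alpha row was found at 1 TPM in 71 cells (93.4%). These intervals cover the counting of cells only, and since TPM keeps no read depth, a listed 0 can also be a failed capture.

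Levels of the 3 beta rows were high and close to each other. Hbb-bs ran from 0 to 2569 TPM with a median of 895 TPM and quartiles of 300 and 1385 TPM. Hbb-b1 ran from 2.59 to 2877 TPM with a median of 992 TPM. Hbb-b2 ran from 0 to 3579 TPM with a median of 1249 TPM. A median of 890 TPM or more was reached by 0.994% of all genes, so each of the 3 rows lay in that upper part of the table. Their sum had a median of 3204 TPM, or 0.320% of a cell's total, a quartile range of 1136 to 4914 TPM and a maximum of 8870 TPM. By mean level, the sum (3290 TPM, SD 2443, n = 76 cells) would stand at rank 21 in the table, and Hbb-bs alone stood at rank 158.

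**Figure D1:**
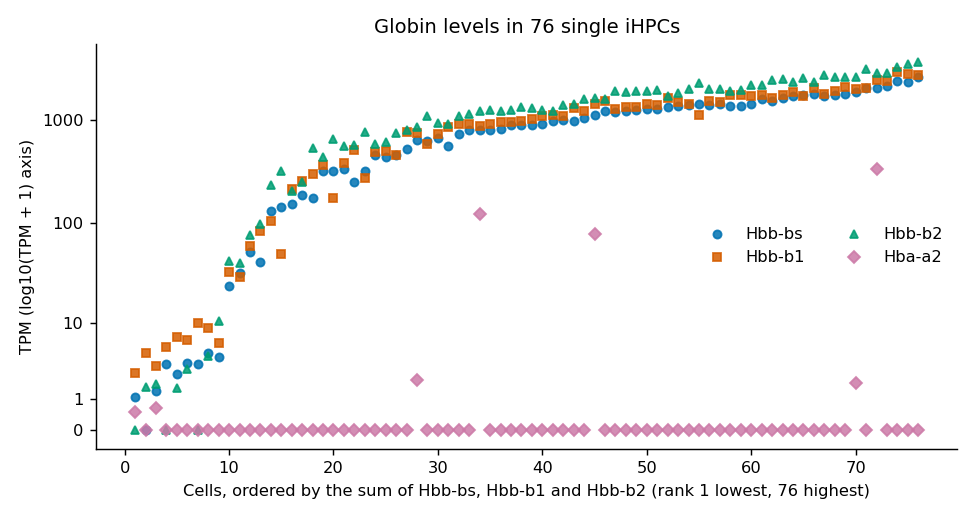
TPM of Hbb-bs, Hbb-b1, Hbb-b2 and Hba-a2 in each of 76 iHPCs on a log10(TPM + 1) axis, with cells ordered from the lowest to the highest beta-globin sum; each point is 1 gene in 1 cell. The 3 beta rows move together over the cells, the 9 lowest cells stop at a sum of 20.5 TPM and the next cell stands at 99.3 TPM, while Hba-a2 exceeds 10 TPM in 3 cells.

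The cells did not form a single continuous range of beta-globin. In 9 cells the sum of the 3 rows lay between 3.69 and 20.5 TPM, and in the other 67 it lay between 99.3 and 8870 TPM. The lowest of the 67 was 4.84 times the highest of the 9, and a bound of 50 TPM, placed in this gap after the values were seen, is used below to name the 9 cells. Of the 67, 59 were at 1000 TPM or more. At 10 TPM, Hbb-bs, Hbb-b1 and Hbb-b2 were in 67, 67 and 68 cells, so the 9 lowest cells account for the difference between detection at 1 TPM and at 10 TPM. The sums of the 9 cells were 0.112 to 0.624% of the mean sum over all 76 cells.

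The number of genes detected overlapped, with a median of 3810 (3061 to 5073) in the 9 cells and of 4246 (2465 to 5992) in the 67 others. Fewer than 3500 genes were detected in 4 of the 9 and in 7 of the 67. Over all cells the beta sum and the number of genes had a Spearman correlation (rho) of -0.17. Each title ends in 1 of 8 letters and a number between 2 and 11. The 9 cells spread over 6 letters and 5 numbers, and 5 of them were among the 15 cells with number 10 or 11. Cells with those 2 numbers also had the fewest genes detected, 3638 and 3792 at the median, while the medians of the remaining numbers ran from 4096.5 to 4469.5. Among the numbers, the median beta sum ran from 1947 TPM (number 5) to 5547 TPM (number 11), and within each number the lowest cell was at 1277 TPM or less and the highest at 4161 TPM or more. The part of the title position in these values was not tested.

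The split among the 3 beta rows was nearly constant in the 67 cells. Hbb-bs took 27.7% of the sum at the median over the 72 cells with a sum of at least 10 TPM. In the 67 cells, Hbb-b2 took a median of 40.5% (SD 4.75 points, n = 67 cells), Hbb-b1 31.5% (SD 4.65 points) and Hbb-bs 27.8% (SD 2.36 points). Hbb-b2 was the highest of the 3 in 65 of the 67 cells, and the full order Hbb-b2, Hbb-b1, Hbb-bs held in 56. Hbb-b2 was 1.48 times Hbb-bs at the median (quartiles 1.39 and 1.55) and Hbb-b1 was 1.12 times Hbb-bs (quartiles 1.07 and 1.21). A few cells departed from this, with a share of Hbb-b1 as low as 9.70% and a share of Hbb-b2 as high as 62.1%. Over all 76 cells, rho was 0.99 between Hbb-bs and Hbb-b1, 0.99 between Hbb-bs and Hbb-b2 and 0.98 between Hbb-b1 and Hbb-b2; rows that may share reads can correlate for that reason alone, so these values do not show separate genes acting together.

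In the 9 lowest cells the order was another. Hbb-b1 was the highest of the 3 rows in 8 of them, with a median share of 61.2% and a highest of 74.4%, whereas its highest share in the 67 cells was 38.3%. Hbb-b2 was listed at 0 in 3 of the 9 and Hbb-bs in 1. The remaining cell, with the highest sum of the 9, had 50.9% Hbb-b2. Over these 9 cells rho was 0.62 between Hbb-bs and Hbb-b1, 0.56 between Hbb-bs and Hbb-b2 and 0.15 between Hbb-b1 and Hbb-b2. All values here are of a few TPM, and whether they come from the cells' own RNA was not tested.

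**Figure D2:**
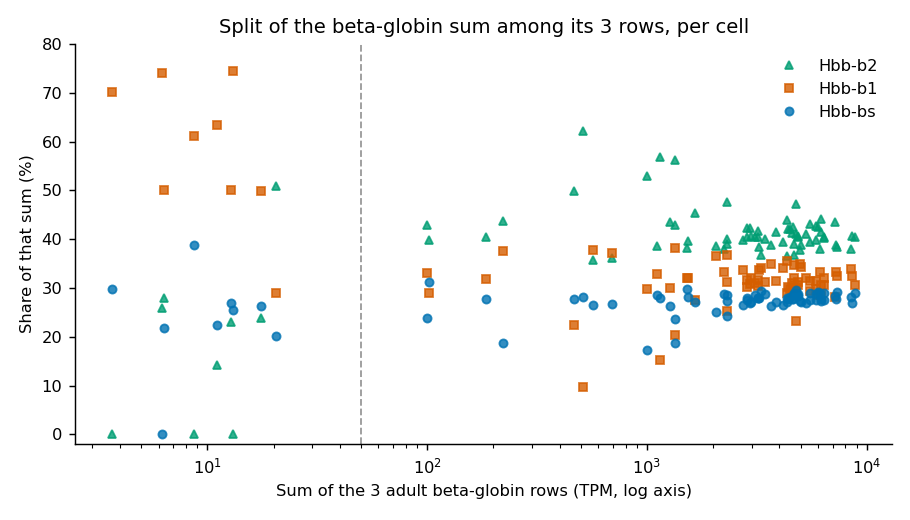
Share of the summed beta-globin TPM held by Hbb-b2, Hbb-b1 and Hbb-bs in each cell (percent), against that sum (TPM, log axis); each point is 1 row in 1 cell and the dashed line marks 50 TPM. To the right of the line the shares stay near 40.5, 31.5 and 27.8%, and to the left Hbb-b1 takes the largest share in 8 of 9 cells.

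Alpha-globin RNA, where found, was lower than the beta sum of the same cell. Hba-a2 was at 333, 122 and 78.2 TPM in 3 cells, at 2.06 and 1.86 TPM in 2 more, at 0.634 and 0.510 TPM in another 2, and at 0 in the other 69. The 3 cells above 10 TPM had beta sums of 7235, 2863 and 4161 TPM, so Hba-a2 was 4.60, 4.26 and 1.88% of the beta sum there. Summed over all cells, alpha-globin was 0.215% of beta-globin. Hba-a1 was at 0 in each. The 2 lowest values belonged to cells with beta sums of 6.35 and 3.69 TPM, among the 9 above, so Hba-a2 was 9.99 and 13.8% of the beta sum there, the highest shares of the 7 cells. Of the other 73 cells, 41 shared a title letter or number with one of these 3, and Hba-a2 was above 0 in 3 of the 41 and in 1 of the 32 that did not. Klf1 and Alas2, described below, were at 0 in all 7 cells with Hba-a2, and Car2 was at 3239, 1303 and 1.85 TPM in the 3 with the most Hba-a2.

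Of the other globin genes, values are given here for 2 of the alpha cluster and for none of the beta cluster. Hbq1a and Hbq1b, the theta-globin genes of the alpha cluster, were each above 0 in 1 cell, the same one, at 6.30 and 83.4 TPM, and this cell had 4353 TPM of beta-globin and no Hba-a2. No row was found for the embryonic genes Hbb-y, Hbb-bh1 and Hba-x or for Hbb-bt, so they are not analysed here. Among protein-coding neighbours within 100000 bases of the alpha cluster, which were looked up after the values were seen, Snrnp25, a spliceosome gene, was found in 72 cells (median 262 TPM), the DNA repair gene Mpg in 34 and Nprl3, whose introns hold the major alpha-globin enhancers, in 21. The cytokine receptor gene Il9r was in 6 cells, Sh3pxd2b in 1 and Rhbdf1 in 0.

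The 250 bases before the RefSeq start sites of Hbb-bs and Hba-a2 are shown to set the promoters of a gene found in 75 cells and one found in 5 beside each other, at chr7:103827929-103828178 on the minus strand and chr11:32296242-32296491 on the plus strand (GRCm38.p6, 5′ to 3′). The 247 bases that the windows of Hba-a1 and Hba-a2 have in common at an offset of 3 were identical. Capitals mark 4 motifs searched on both strands. They are the CCAAT box, the CACCC box, which Klf1 can bind, the GATA motif in any of its forms (AGATAA, or TGATAA, or AGATAG, or TGATAG) and the TATA motif TATAA. The Runx motif TGTGGT was searched as well, and no motif overlapped another.
Hbb-bs: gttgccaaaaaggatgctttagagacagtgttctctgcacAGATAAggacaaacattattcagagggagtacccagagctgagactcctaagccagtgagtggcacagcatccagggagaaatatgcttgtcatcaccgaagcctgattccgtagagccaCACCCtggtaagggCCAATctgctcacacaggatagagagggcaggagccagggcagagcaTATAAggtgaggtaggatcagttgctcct
Hba-a2: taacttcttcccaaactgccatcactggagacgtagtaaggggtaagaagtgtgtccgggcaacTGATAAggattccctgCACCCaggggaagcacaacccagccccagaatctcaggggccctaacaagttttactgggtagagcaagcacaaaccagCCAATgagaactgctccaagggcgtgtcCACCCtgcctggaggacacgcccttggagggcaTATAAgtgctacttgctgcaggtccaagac
Both windows hold all 4 motifs. These letters are common: of 32851 RefSeq promoter windows of this length, 33.8% held the CCAAT box, 52.01% the CACCC box, 26.5% a GATA motif of any form and 22.8% the TATA motif on either strand. The GATA motif began at -210 from the start site, as AGATAA, in the Hbb-bs window and at -186, as TGATAA, in the Hba-a2 window. TGTGGT was in neither, and in 14.05% of all. A match in letters does not show that a factor binds.

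Apart from Car2, the listed genes that mark red cell development were each in 22 of the same cells or fewer. Of 25 erythroid maturation genes, 14 were in the table. Among these, 6 reached 1 TPM in 0 of 76 cells, as did 18.8% of all genes. They include Epor (the erythropoietin receptor), Car1, Icam4, Tspan33 and Add2. Only 1 of the 14, Car2, was in at least 38 cells, a breadth that 23.1% of all genes reached. Car2, a carbonic anhydrase also made outside the red lineage, was found in 59 cells (median 125 TPM). The next were Bpgm, an enzyme that tunes oxygen release, in 22 cells, the transferrin receptor gene Tfrc in 19, Epb41 and Blvrb in 15 each and Hemgn in 14. Rhd was in 1. At 10 TPM or more Hemgn was in 13 cells, of which 9 were among the 67 with a beta sum of at least 50 TPM. Of the 67 cells with a beta sum of 50 TPM or more, 19 had none of the listed genes other than Car2 at 1 TPM. The median over all cells was 2 of 14 genes.

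The enzymes that make haem were each found in part of the cells, and the red cell form of the entry enzyme in 1. Alas1, the housekeeping form of the entry enzyme, was in 42 cells, and Alas2, the erythroid form, was at 7.21 TPM in its 1 cell. Urod was in 64 cells, Alad in 34, Uros in 31, Ppox in 27, Fech, which inserts the iron, in 26 and Cpox in 14. A median of 4 of the 8 steps was detected per cell (range 1 to 7), and the number of steps had a rho of 0.049 with Hbb-bs. Among listed genes for membrane proteins of the mitochondrion, Slc25a39 was in 69 cells, Tmem14c in 62, Slc25a38 in 26 and Abcb10 and Slc25a37 in 8 each. Of the genes for iron storage and haem breakdown, Ftl1 and Fth1, the ferritin chains, were in all 76 cells at medians of 8616 and 2434 TPM, Hmox2, a haem oxygenase, was in 66 and Blvra, which acts after it, in 48.

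The known regulators of the globin clusters were partly present: 10 of 26 were in at least 38 cells, a breadth that 23.1% of all genes reached, and 2 were in 0. Nfe2, the partner of small Maf proteins at the beta locus control region, was found in 75 cells (median 743 TPM). Lyl1 was in 67 cells, Lmo2 in 58 and Ldb1 in 24; Lmo2 and Ldb1 bridge GATA and basic helix-loop-helix factors at the globin loci. Of their partners in red cells, Gata1 was in 0 cells and Tal1 in 4. Klf1, which binds CACCC boxes on its own, was in 1, at 124 TPM in one of the 9 cells with the least beta-globin. Gata2, the GATA factor of earlier progenitors, was in 36. Myb was in 58 cells and Cbfa2t3, a corepressor of the same complex, in 52. Among factors that act on the switch from embryonic or fetal to adult globin, Bcl11a was in 42 cells, Zbtb7a in 37 and Sox6 in 0. Spi1, a myeloid factor that opposes Gata1, was found in 74 cells (median 549 TPM). The other regulators were between Klf3 in 33 cells and Nr2c2 in 3, apart from Runx1 in 73, Tcf3 in 49 and Ikzf1 in 45.

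**Figure D3:**
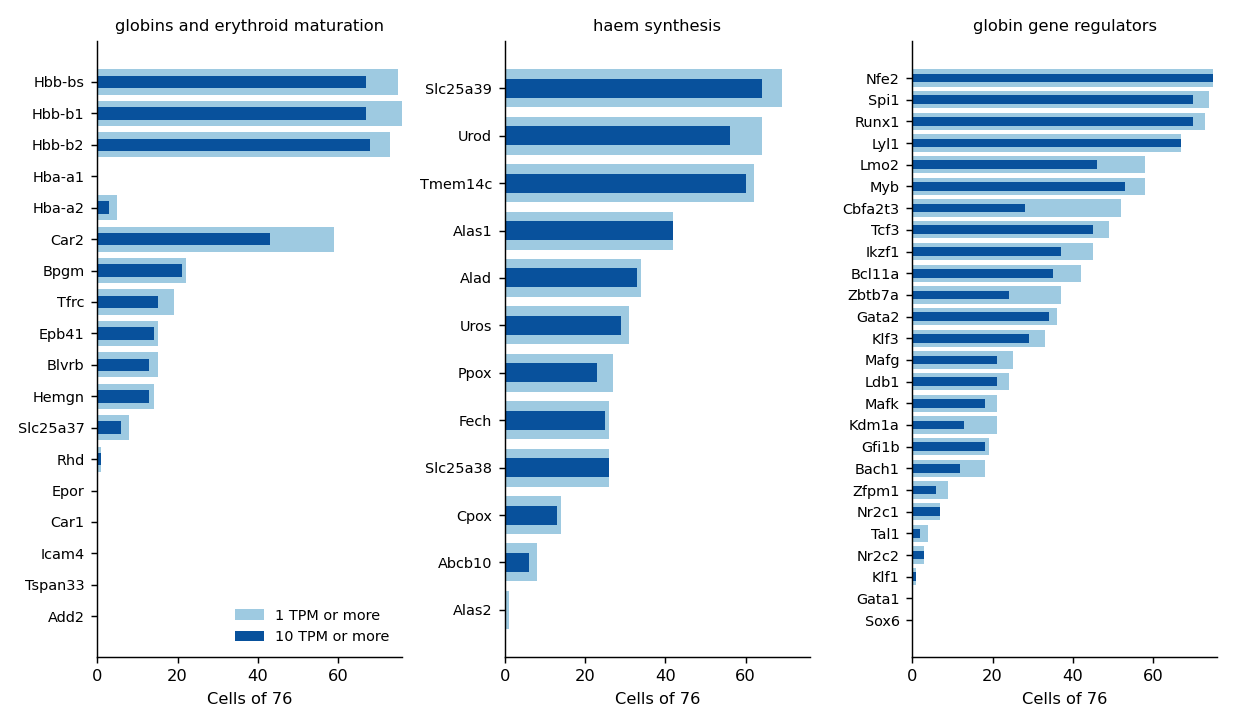
Number of the 76 cells in which each listed gene reached 1 TPM (light bars) and 10 TPM (dark bars), for the 5 globin rows with the erythroid maturation genes (left), haem synthesis genes (middle) and globin regulators (right). The beta rows reach 73 to 76 cells, while Hba-a1, Epor, Car1, Gata1 and Sox6 are at 0 and Klf1 and Alas2 at 1.

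Of 11 listed genes common to blood cells, all were at 1 TPM in at least 57 cells, a breadth that 13.1% of all genes reached, among them Arhgdib and Coro1a in 76 and Ptprc (CD45) in 66. Detection of the 9 progenitor surface genes was uneven, and 6 of them were in at least 38 cells, a breadth that 23.1% of all genes reached. Cd34 and Cd48 were in 76 cells, Ly6a in 65 and Adgrg1 in 64. Fewer cells had the rest of this list: 2 had Slamf1, 13 had Procr, 33 had Cd27, 40 had Flt3 and 43 had Kit. Of 10 listed macrophage genes, C1qb, Mrc1 and Vcam1 were at 1 TPM in 0 cells, while 60 cells had Adgre1, 25 had Cd68, and 14 had Apoe; the sum of the list ran from 0 to 2075 TPM. The sum of the 14 erythroid maturation genes ran from 0.244 to 3453 TPM. Of the stromal genes, Col1a1 and Col1a2 were in 0 cells, and of the pluripotency genes Pou5f1 was in 0. The part of red cell or macrophage RNA in the beta-globin values was not tested.

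The genes whose levels most resembled Hbb-bs across cells, beyond the other beta rows, included Cd48 and Lmo2. The measure was rho over 76 cells that count as 1 sample, for 3510 genes at 1 TPM or more in at least 38 cells. All points share the TPM scale. Cd48, a surface molecule of blood cells, had a rho of 0.60, the highest outside the beta rows. It was followed by Serpina3g, a protease inhibitor gene (0.52), BC028528 (0.50), Clec10a, a lectin gene (0.48), the tetraspanin genes Tspan32 (0.48) and Tspan6 (0.48), Lmo2 (0.47) and Ebi3, a cytokine subunit gene (0.46). The central 95% of the 3510 genes lay between -0.27 and 0.28, with a median of -0.014; 1.97% reached 0.3 and 1.37% were at -0.3 or less. The lowest values belonged to Atp1b3, a sodium pump subunit (-0.45), the actin-binding gene Tmsb4x (-0.45), Plac8 (-0.41), the selectin ligand gene Selplg (-0.40) and the mitochondrial chaperone gene Dnajc15 (-0.39).

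The values named here were smaller in size without the 9 cells with little beta-globin. Leaving those cells out also narrows the range of Hbb-bs, so the change does not show what they contributed. Within the 67 others, rho was 0.47 for Cd48, 0.41 for Serpina3g, 0.39 for Lmo2, 0.37 for Clec10a and 0.30 for Ebi3, and it was -0.38 for Atp1b3 and -0.36 for Tmsb4x, but -0.17 for Selplg and -0.21 for Dnajc15. Within title numbers 2 to 6 (37 cells) and 7 to 11 (39 cells), Cd48 gave 0.61 in each range while Lmo2 gave 0.52 and 0.45, Gata2 0.43 and 0.55 and Clec10a 0.34 and 0.64. With the number of genes detected regressed out, Cd48 stayed at 0.60 and Lmo2 was 0.45.

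Among the regulators, 19 were in at least 15 cells and 4 of these had a rho of 0.3 or more with Hbb-bs, against 1.48% of all 6779 genes found that often. They were Gata2 (0.50), Lmo2, Runx1 (0.37), one of the introduced factors, and Ldb1 (0.35). The median of the 19 was 0.033, beside -0.020 over all 6779 genes. Nfe2 (0.042), Lyl1 (0.038), Bcl11a (-0.052) and Myb (-0.095) lay near that median. Within the 67 cells, Gata2 gave 0.44, Lmo2 0.39, Runx1 0.28 and Ldb1 0.26. For Ldb1 the ranges of title numbers differed, with 0.19 in numbers 2 to 6 and 0.47 in 7 to 11. The other introduced factors, Hoxa10 and Hoxa9, were in 28 and 18 cells and had values of 0.19 and 0.21.

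**Figure D4:**
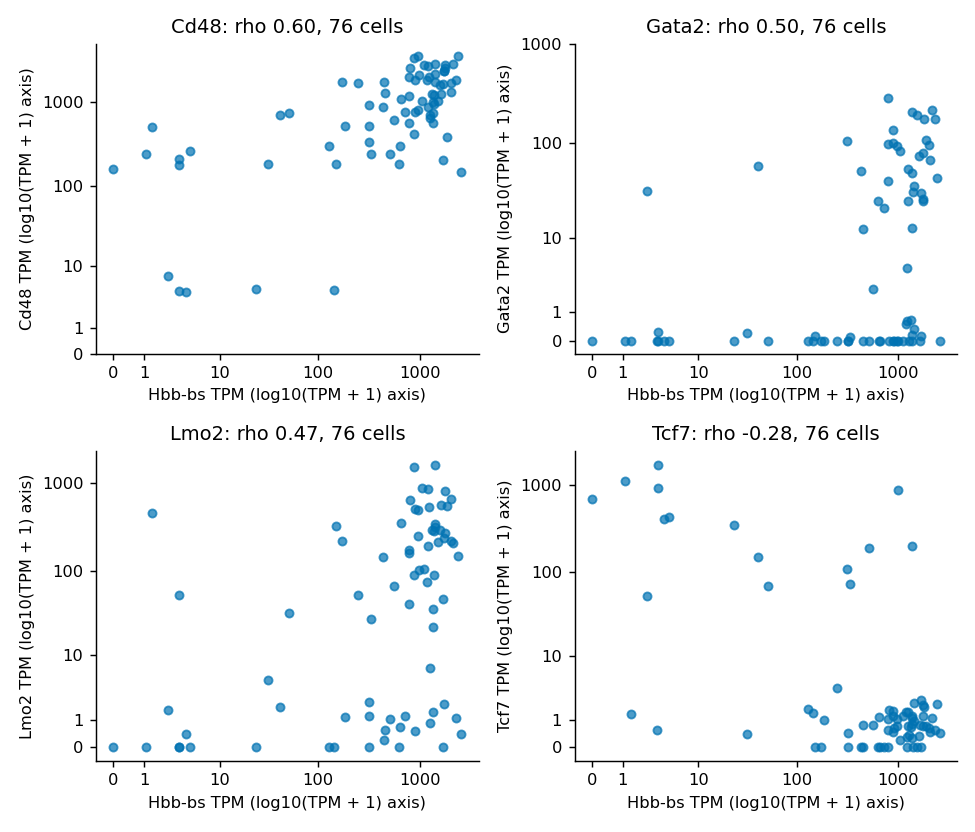
Levels of Cd48, Gata2, Lmo2 and Tcf7 against Hbb-bs in 76 cells, both on log10(TPM + 1) axes; each point is 1 cell and rho is given above each plot. Cd48, Gata2 and Lmo2 are high mostly at the right, where Hbb-bs is high, and the highest Tcf7 values lie mostly at the left, in cells with Hbb-bs under 5 TPM.

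The lists of single lineages gave few genes past 0.3. None of the 5 erythroid maturation genes found in at least 15 cells reached 0.3 (median 0.072), with Car2 at 0.17 and Tfrc at -0.12; Tfrc gave -0.53 in title numbers 2 to 6 and 0.28 in 7 to 11. Of 10 haem synthesis genes none did (median -0.070), and of 10 granulocyte-monocyte genes none did (median 0.0092), among them Prtn3 (-0.018), Fcgr3 (-0.039), Mpo (0.045) and Spi1 (-0.096). Of the megakaryocyte genes, Itgb3, an integrin gene, had a rho of -0.036. Of 7 progenitor surface genes (median -0.059), Cd48 and Cd34 (0.41) were above 0.3 and Cd27 (-0.36) was under -0.3. The other 4, Ly6a (0.11), Adgrg1 (-0.059), Kit (-0.16) and Flt3 (-0.18), lay between. Within the 67 cells with a beta sum of at least 50 TPM, Cd34 gave 0.25 and Cd27 -0.15. Neither stayed past 0.3 in this narrower range of Hbb-bs. The S phase and the G2 and M phase genes had medians of -0.12 and -0.14, with none of 12 and none of 8 past 0.3 in either direction. Of the macrophage genes, Adgre1 had 0.19 and Cd68 -0.31, and of the 4 endothelial genes none reached 0.3, Egfl7 coming highest at 0.24.

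**Figure D5:**
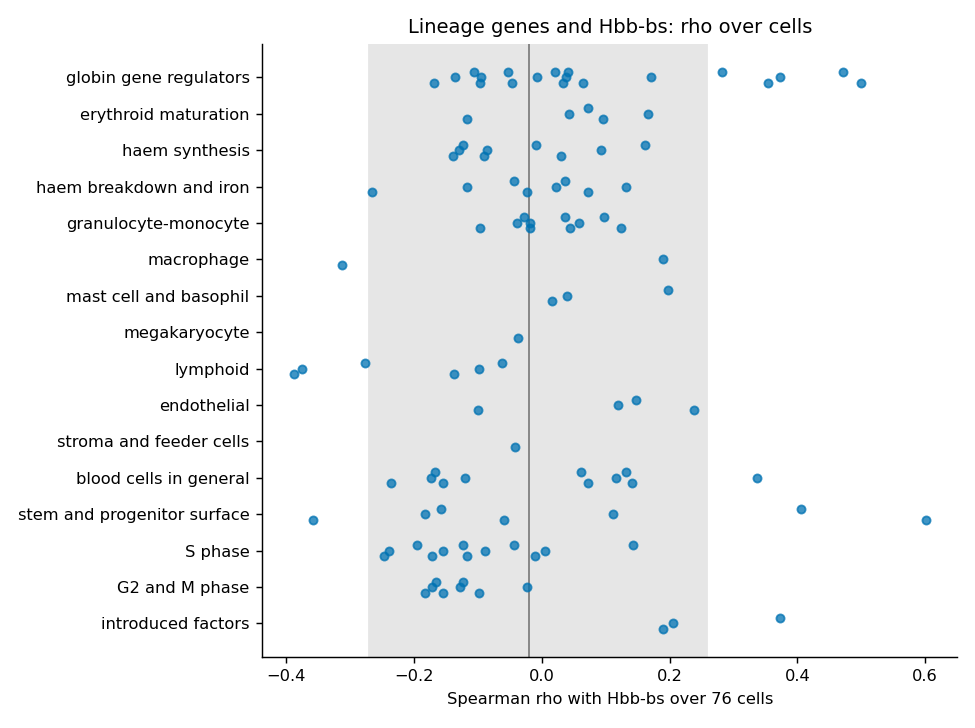
Spearman rho with Hbb-bs over 76 cells for the members of each gene list; each point is 1 gene found at 1 TPM in at least 15 cells. The grey band holds the central 95% of all 6779 such genes (-0.27 to 0.26) and the line their median; Cd48, Gata2, Lmo2 and Cd34 lie to its right, and Satb1, Lck and Cd27 to its left.

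Some genes of the T lineage were high where beta-globin was low. Of the 6 lymphoid genes found in at least 15 cells, Satb1 (-0.39) and Lck (-0.38) were at -0.3 or less, against 1.42% of all 6779 genes, and Tcf7 was at -0.28. Nearer to 0 lay Notch1 (-0.14), Cd79b, a B cell gene (-0.098), and Gata3 (-0.063). Cd79b was the only B cell gene among the 6, so T and B lineage genes cannot be compared here. Bcl11b, of the same list, reached 1 TPM in 0 cells. Tcf7, a transcription factor of early T cells, was at 10 TPM or more in 15 cells, and 7 of these were among the 9 cells with a beta sum under 50 TPM, so that 7 of those 9 and 8 of the other 67 cells had it. In those 7 cells Tcf7 ran from 53.1 to 1687 TPM and the beta sum from 3.69 to 20.5 TPM. In the other 8 cells with Tcf7 the beta sum ran from 99.3 to 5020 TPM, with 99.3, 186 and 222 TPM as the 3 lowest. These counts were chosen after the values were seen.

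Lck, a T cell kinase gene, was at 10 TPM or more in 8 of the 9 cells and in 22 of the 67, and Cd27 in 8 of 9 and 21 of 67. Satb1, a chromatin organiser gene, was so in 6 of 9 and 15 of 67. Gata2 was so in 1 of 9 and 33 of 67, and Lmo2 in 2 of 9 and 44 of 67. Kit was so in 4 of 9 and 29 of 67, and Flt3 in 4 of 9 and 35 of 67. Runx1 was in 7 of 9 and 63 of 67, and Cd34 in 7 of 9 and 67 of 67. Of the granule protease genes, Prtn3 was so in 2 of 9 and 53 of 67. Cpa3, a mast cell protease gene, was so in 7 of 9 and 47 of 67. Its median was 3667 TPM (4.38 to 23326) in the 9 cells and 87.1 TPM (0.787 to 21201) in the 67, and its rho with Hbb-bs over all cells was 0.040. Of the other listed mast cell genes, Mcpt8 was at 10 TPM or more in 11 cells, 10 of them among the 67. Hdc was so in 6 cells, all among the 67, and Tpsb2, Cma1, Ms4a2 and Fcer1a in 0. Within the 67 cells rho with Hbb-bs was -0.24 for Lck, -0.23 for Satb1 and -0.050 for Tcf7. These cells span a narrower range of Hbb-bs, which can by itself make rho smaller in size.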

How the data were processed

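Per the labels' protocols, iHPCs were sorted singly, and polyA RNA was amplified (Discover-sc WTA Kit V2) before library preparation (TruePrep kit). The authors deposited 1 table of TPM values, and each of its columns summed to 1000000, so read depth is unknown. Tools named in the submitters' processing notes are HISAT2 2.1.0, StringTie 1.3.4, SAMtools 0.1.19 and bcl2fastq, with the build mm10; for the annotation and for reads that match several genes, no statement is given in the sources used here. Per cell, 2465 to 5992 genes were at 1 TPM or more (median 4182.5), and 66.3% of all values were 0.

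Detection was set at 1 TPM. Spearman's rho (scipy 1.17.1) was computed without a test, by code tested on simulated data. Symbols were matched through RefSeq synonyms, by which 5 genes were found. The 20 lists held 209 genes, 180 of them in the table; 3 are not reported here or plotted. Members and lists were chosen with earlier results of these data known. Named genes were the members, the listed globins, regulators, erythroid and haem genes, the 4 members of each other list in most cells, and the 10 highest and 5 lowest rho with Hbb-bs without predicted genes. Cd27, Kit, Flt3, Procr, Slamf1, Ptprc, Gata3, Notch1 and Hdc were chosen after their values were seen. So were macrophage, mast cell and lymphoid genes at 0, neighbouring genes and every count over the 9 lowest cells. Alternatives were other detection levels, title numbers 2 to 6 or 7 to 11, cells with at least 3500 genes, Pearson's r on log2(TPM + 1) or with a pseudocount of 0.1, regression on genes detected, and rescaling without ribosomal-protein genes. The 50 TPM bound, the Tcf7 settings and those for single named genes were added after seeing the data. Values count as moved when a share leaves its 95% interval, a level or count changes by over 1.5 times, or a rho by over 0.1.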

Additional observations from a re-analysis of the deposited data

How the results depend on the processing

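With cells that count as 1 sample, no read depth and no control cells, these values describe 76 cells. Hbb-bs was in 88.2% of cells at 5 or 10 TPM and in 100% of cells with title numbers 2 to 6. The shares of cells with alpha-globin (3.95 to 9.21%) and with beta but no alpha (85.5 to 94.9%) stayed within their intervals under every setting tried, as the median Hbb-bs level (797 to 965 TPM) stayed within 1.5 times its value. The number of genes with a rho of 0.3 or more with Hbb-bs, 69 in the main setting, was 150 and 182 in title numbers 2 to 6 and 7 to 11, where fewer cells spread rho more widely, and 137 and 141 with Pearson correlation at pseudocounts of 1 and 0.1. Of the 23 named genes past 0.3 in size, all 184 values under 8 added settings kept their sign and 164 stayed past 0.3; without the 9 low cells 14 of 23 did. Tcf7 at 10 TPM with a beta sum under 50 TPM, in 7 cells, was in 3 and 4 cells of the ranges of title numbers and in 4 cells with at least 3500 genes, settings that hold fewer cells. Pearson's r between Tcf7 and Hbb-bs was -0.65, against a rho of -0.28. No paired analysis was possible because all cells form 1 group.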
